A study of Rattus norvegicus with 32 samples.

Results

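Interferon-stimulated genes are the genes that cells switch on after an interferon binds its receptor. A list of 37 such genes was followed by gene symbol in a table of 32883 Ensembl rat genes. All 37 were in the table, each on 1 row, and 33 of them reached the level needed for testing, which was at least 1 FPKM (fragments per kilobase of gene, scaled to the size of the library) in at least 8 libraries. The 4 that did not were Ifit1, Oas2, Oas3 and Zbp1.

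The animals were male rats of the Lewis strain, and whole liver was read by sequencing of polyadenylated RNA. The title of the study names grafts with macrosteatosis, a fatty liver whose cells carry large fat droplets. The labels name 12 livers sampled before transplantation, 12 sampled after it and 8 from long-term survivors. They give neither the fat content of a graft, nor the time of sampling, nor which libraries come from the same animal, so these could not be entered in any test, and nothing says how far p-values reflect animals rather than technical spread. Of the 32 columns of values, 30 could be tied to a group, which left 11 libraries from before transplantation, 11 from after it and 8 from long-term survivors.

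The libraries held between 15372950 and 19311664 reads in genes. Some stood apart. Long-term survivor replicates 3 and 7, and likewise 4 and 8, differed far less from each other than any other pair did, with a chi-square per degree of freedom of 3.135 and 3.447 against 24.17 for the next closest pair. Post-transplant replicate 9 had the smallest share of all tested genes above the pre-transplant range, 10.1%, and the lowest summed neutrophil markers of its group. The pre-transplant library u2, 1 of 2 that share a column header, had the highest summed neutrophil and macrophage markers and the lowest summed hepatocyte markers of its group. Hepatocyte markers summed to 24533 FPKM or more in every library, so the labelled tissue was read in all of them.

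In the interferon response, type I interferons (alpha and beta) and type III interferons (lambda) act through JAK kinases on a factor that holds STAT2 and IRF9 and binds a promoter element called ISRE. Interferon gamma, made mainly by T cells and NK cells, acts on a different element called GAS. The products block virus entry and replication, sense foreign nucleic acids, tag proteins with ISG15 and load peptides for T cells. In liver, Kupffer cells, endothelial cells and hepatocytes all respond.

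These 2 elements were searched in the promoters of the listed genes, from 250 bases before to 50 bases after the transcript start, as RefSeq gives them for the rat build GRCr8. ISRE was searched as GAAA, 2 bases of any kind and GAAA again, and GAS as TTC, 3 bases of any kind and GAA, on both strands, and the 2 patterns can overlap. A promoter was found for 27 of the 37 genes. ISRE letters stood in 17 of these 27 (63%), against 3.92% of 33469 rat promoters of the same length. GAS letters stood in 7 of 27 (25.9%), against 8.87% of all promoters. Both stood in 4 and neither in 7. A match is a description of the letters and not a shown binding site.

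The 6 promoters that follow were chosen, with the values known, to show both elements in genes described one by one in the results. Capitals mark every ISRE or GAS match. Ifit3, Oas1a, Irf7 and Gbp2 hold ISRE letters, Oas1a with a GAS match farther upstream, while Irf1 and Irf8 hold GAS letters and no ISRE.
Ifit3 promoter, chr1:241527076-241527375, plus strand: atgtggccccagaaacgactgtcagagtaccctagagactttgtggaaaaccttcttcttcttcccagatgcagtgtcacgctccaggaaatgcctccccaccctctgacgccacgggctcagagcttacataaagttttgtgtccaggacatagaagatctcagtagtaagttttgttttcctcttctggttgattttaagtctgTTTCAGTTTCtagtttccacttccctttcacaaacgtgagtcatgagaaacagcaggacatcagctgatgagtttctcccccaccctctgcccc
Oas1a promoter, chr12:41330216-41330515, plus strand: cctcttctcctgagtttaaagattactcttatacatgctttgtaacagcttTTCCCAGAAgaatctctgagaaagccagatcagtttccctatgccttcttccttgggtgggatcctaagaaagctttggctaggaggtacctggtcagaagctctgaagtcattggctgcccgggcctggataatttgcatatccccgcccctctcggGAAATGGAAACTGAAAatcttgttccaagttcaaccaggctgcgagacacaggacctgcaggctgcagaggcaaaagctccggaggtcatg
Irf7 promoter, chr1:205799974-205800273, minus strand: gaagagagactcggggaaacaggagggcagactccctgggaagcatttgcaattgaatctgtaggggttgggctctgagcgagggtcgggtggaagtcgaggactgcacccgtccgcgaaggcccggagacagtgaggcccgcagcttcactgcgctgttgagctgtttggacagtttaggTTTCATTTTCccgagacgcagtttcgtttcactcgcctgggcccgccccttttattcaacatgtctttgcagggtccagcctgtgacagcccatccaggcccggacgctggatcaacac
Gbp2 promoter, chr2:234005477-234005776, plus strand: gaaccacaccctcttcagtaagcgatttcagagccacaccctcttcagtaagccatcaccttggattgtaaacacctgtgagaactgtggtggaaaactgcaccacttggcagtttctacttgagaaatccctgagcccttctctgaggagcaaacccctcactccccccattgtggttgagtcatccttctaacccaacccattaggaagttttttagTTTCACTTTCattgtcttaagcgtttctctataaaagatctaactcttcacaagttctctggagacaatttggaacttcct
Irf1 promoter, chr10:38417685-38417984, plus strand: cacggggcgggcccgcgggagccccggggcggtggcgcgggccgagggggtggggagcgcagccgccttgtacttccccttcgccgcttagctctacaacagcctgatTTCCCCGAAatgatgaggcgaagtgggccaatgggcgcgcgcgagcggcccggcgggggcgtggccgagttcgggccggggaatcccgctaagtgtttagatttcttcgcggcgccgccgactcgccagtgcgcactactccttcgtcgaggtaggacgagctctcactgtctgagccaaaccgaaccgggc
Irf8 promoter, chr19:65699034-65699333, plus strand: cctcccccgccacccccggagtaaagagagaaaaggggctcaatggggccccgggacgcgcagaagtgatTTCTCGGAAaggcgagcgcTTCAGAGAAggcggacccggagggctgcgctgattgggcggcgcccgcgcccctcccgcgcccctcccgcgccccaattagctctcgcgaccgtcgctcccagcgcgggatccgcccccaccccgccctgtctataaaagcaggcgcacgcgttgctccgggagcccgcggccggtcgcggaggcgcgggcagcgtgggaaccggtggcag
In Ifit3, Oas1a and Gbp2 the first ISRE base lies 44, 41 and 31 bases before the transcript start. In Irf7 it lies 69 bases before it. The single GAS match of Irf1 begins 142 bases before the start, and the first of the pair in Irf8 begins 180 bases before it.

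Comparing post-transplant with pre-transplant livers asks which of these genes changed after a graft was transplanted. Of the 33 tested genes, 19 were higher after transplantation and none was lower. The 19 included Isg15, Irf7, Mx1, Ifit3 and all 3 guanylate-binding proteins, though Gbp4 passed the filter without any pre-transplant library. Among all 11924 genes tested, 23.4% were higher and 26.6% were lower at the same threshold, a Benjamini-Hochberg adjusted p under 0.05 from limma. The median log2 fold change of the 33 was 0.79, beside -0.03 for all tested genes. None of the 33 was lower at an unadjusted p under 0.05 either (count 0), and voom on the recovered reads also gave 0 lower. Without post-transplant replicate 9 and pre-transplant u2 the count of higher genes was 16, beside 25.2% of all tested genes. All fold changes here are on the scale of log2(FPKM + 1), which understates changes of low genes.

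The group difference did not describe each liver. In 6 of the 11 post-transplant libraries, replicates 6, 7, 8, 9, 11 and 12, between 25 and 32 of the 33 genes were above every pre-transplant library and none was below. In the other 5, replicates 2, 3, 4, 5 and 10, only 1 to 9 genes were above that range and 2 to 19 were below it. The share of all tested genes above the pre-transplant range ran from 10.1% to 25.9% in the first 6 and from 16.6% to 23.8% in the other 5. The share below it ran from 8.64% to 27.8% in the first 6 and from 14.8% to 25.7% in the other 5, so the 2 sets overlapped in the genes at large.

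**Figure D1:**
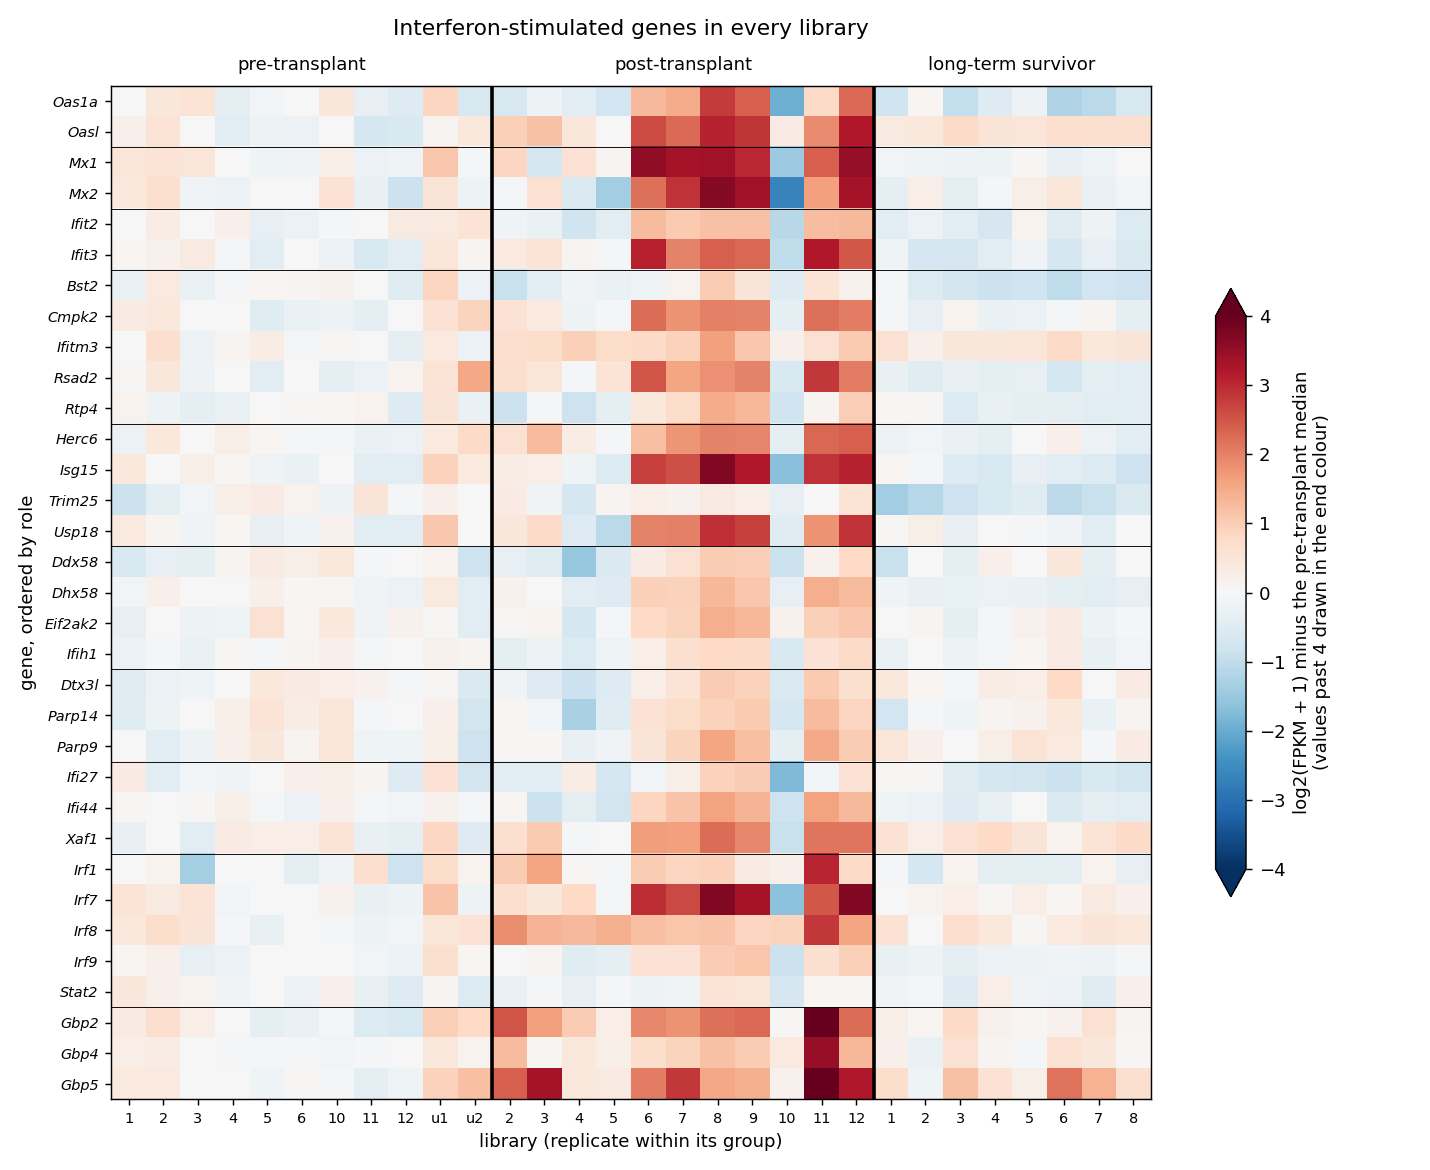
Each cell is the log2(FPKM + 1) of 1 tested gene (rows, ordered by role) in 1 library (columns, by group) minus the median of the 11 pre-transplant libraries. Post-transplant replicates 6, 7, 8, 9, 11 and 12 are red across most rows, replicate 10 is blue across many, and the long-term survivor libraries are close to the pre-transplant ones.

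**Figure D2:**
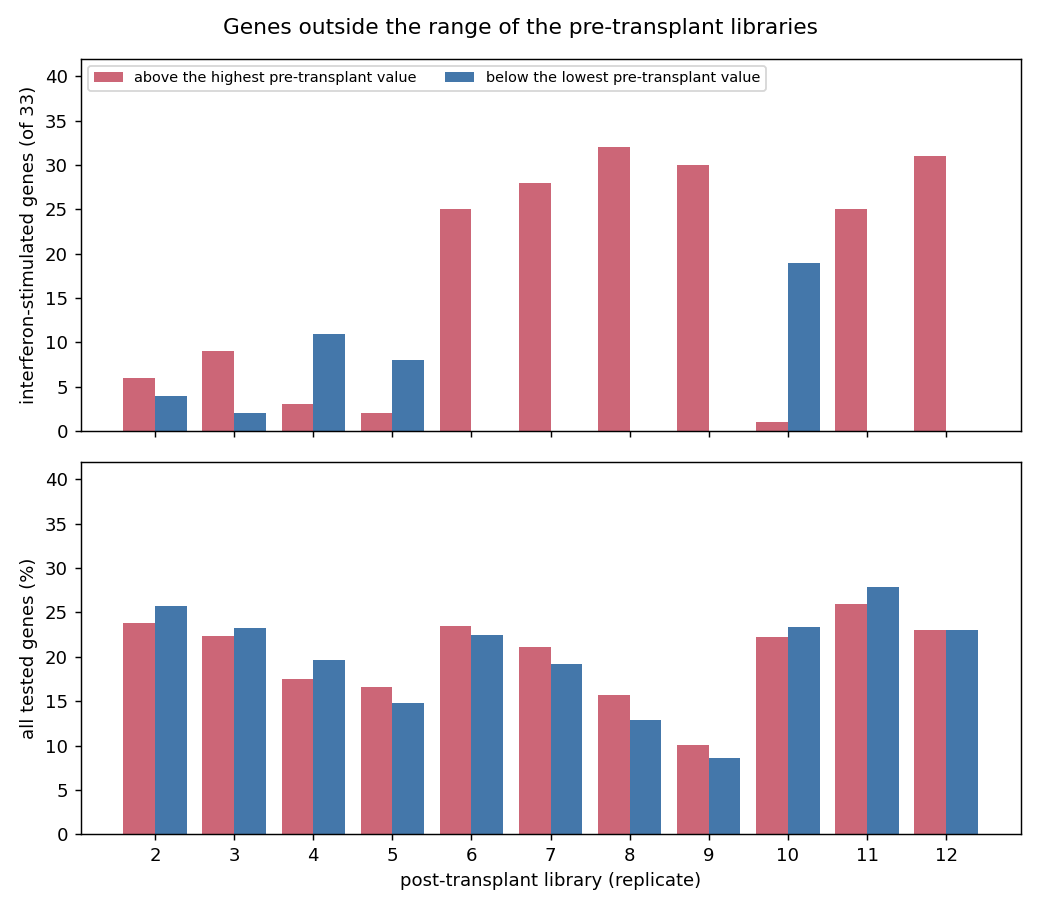
Bars give, for each post-transplant library, the number of the 33 tested genes (upper panel) and the percentage of all 11924 tested genes (lower panel) above the highest or below the lowest pre-transplant library. Replicate 8 had 32 of 33 genes above the range and replicate 10 had 19 below it, while the shares of all genes differ far less.

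The mean log2 level of the 33 genes gives the order of the libraries. It was lowest in post-transplant replicate 10, at 2.76, then 3.22 in replicate 5, 3.25 in replicate 4, 3.75 in replicate 3 and 3.77 in replicate 2. The next was replicate 6 at 4.68, a step of 0.907 that was the widest in the group. Replicates 7, 9, 12, 11 and 8 followed at 4.72, 4.99, 5.08, 5.15 and 5.17. Pre-transplant libraries lay between 3.14 and 3.92 and long-term survivors between 3.28 and 3.38. Replicates 2, 3, 4 and 5 therefore fell within the pre-transplant range and replicate 10 below it. For replicates 2 and 3 this rests on u1, a pre-transplant library with a shared column header, at 3.92. The next highest pre-transplant library was at 3.58, and both were above it. By title number, the lower 5 are M6, M7, M11, M12 and M24, and the upper 6 are M13, M18, M19, M20, M25 and M26; the labels do not say what these numbers stand for.

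For 22 of the 33 genes each of the 6 upper libraries was above each of the other 5. This count describes the same genes whose mean placed the step, so it is no independent evidence of it. The same held for 0.864% of all 11924 tested genes and for 20 of 54 tested genes of a further list of interferon-stimulated genes. Of those with ISRE letters in the promoter it held for 10 of 16 tested, and of those without for 5 of 10.

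In the ISG15 system, Isg15, a ubiquitin-like protein joined to other proteins, stood at 5.06, 7.39 and 14.9 FPKM (lowest, median and highest) in pre-transplant livers, at 1.63, 48.9 and 107.85 after it and at 3.71, 4.94 and 7.93 in long-term survivors. The 6 upper post-transplant libraries, at 48.9 or more, cleared every other library, while replicate 10 was the lowest of all 30. Its log2 fold change was 1.42 ± 0.48 (SE, n = 11 and 11; adjusted p = 0.0141 from limma), a 2.68-fold difference. Usp18, the protease that removes ISG15 and damps the type I receptor, rose by 1.2 ± 0.38 (adjusted p = 0.00986) and reached 62.3 FPKM in replicate 8. Herc6, which in mouse joins ISG15 to its targets, rose by 1.12 ± 0.26 (adjusted p = 0.000684). Trim25, a ubiquitin ligase for the sensor RIG-I, did not pass, at 0.10 ± 0.15.

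The Mx GTPases, which trap viral nucleocapsids, showed the widest ranges of any role. Mx1 was at 1.94, 2.44 and 6.32 FPKM before transplantation, at 0.256, 17 and 39.1 after it and at 1.75, 2.06 and 2.54 in long-term survivors. Replicate 10 was lowest and replicate 6 highest, a ratio of 153, with the groups overlapping. Mx1 rose by 1.5 ± 0.47 (adjusted p = 0.00912). Mx2 ranged from 0.972 to 160 FPKM after transplantation, around a median of 38.5, beside 5.94 to 18.8 before it. Its 1.14 ± 0.55 did not pass (adjusted p = 0.084). Mx1 and Mx2 are alike in sequence, and reads they share could have been split or dropped by the authors' counting, which is not given in the sources used here; the same holds for the Oas, Ifit, Gbp, Ifitm and Ifi27 families.

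The oligoadenylate synthetases make the short adenylate chains that switch on RNase L. Oasl, a family member without that activity in human, was at 1.08, 2.40 and 4.0 FPKM before, 2.34, 11.5 and 30.1 after it and 3.34, 4.06 and 4.73 in long-term survivors. It rose by 1.79 ± 0.31 (adjusted p = 2.15e-05), with replicate 12 highest and replicate 5 lowest. Oas1a spanned 0.836 to 48.4 FPKM after transplantation against 3.65 to 12.0 before it, and its 0.60 ± 0.41 did not pass (adjusted p = 0.231). Oas2 and Oas3 were too low to test. Oas2 had medians of 0.451 FPKM before and 1.32 after, and a highest post-transplant value of 4.91 in replicate 12; the median of Oas3 was 0.232 before and 1.45 after.

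The IFIT proteins bind the ends of foreign RNA, and their genes lie side by side on chromosome 1. Ifit3 (ENSRNOG00000022839, plus strand, chr1:252906234-252911382 in the deposited coordinates) was at 1.89, 3.52 and 5.38 FPKM before, 1.25, 16.7 and 40.2 after it and 1.82, 2.17 and 3.11 in long-term survivors. The 6 upper libraries were at 16.7 or more and the other 5 at 5.67 or less, within or near the pre-transplant range. It rose by 1.45 ± 0.37 (adjusted p = 0.00171). Ifit2 had a pre-transplant median of 9.77 FPKM and a post-transplant range of 4.04 to 25.5, and its 0.30 ± 0.25 did not pass. Ifit1 was at most 0.688 FPKM, 36 reads, in any post-transplant library and was not tested.

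Among the effectors of membranes and nucleotides, Rsad2 (viperin), which makes a chain-ending form of CTP, and its neighbour Cmpk2, which supplies CTP, moved alike. Their genes lie on chromosome 6 in opposite directions with 14086 bases between them. Rsad2 rose by 1.12 ± 0.31 (adjusted p = 0.0033) from a median of 1.09 to 5.27 FPKM, and Cmpk2 by 1.07 ± 0.29 (adjusted p = 0.00283) from 1.32 to 7.00. For both, the 6 upper libraries cleared the other 5.

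Ifitm3, which blocks fusion of virus with the endosome, behaved differently. It was at 192, 255 and 403 FPKM before, 292, 432 and 802 after it and 292, 353 and 429 in long-term survivors. Even replicate 10, the lowest, was above the pre-transplant median, though the groups overlapped. Ifitm3 rose by 0.79 ± 0.13 (adjusted p = 1.13e-05). Bst2 (tetherin), which holds new virus at the cell surface, had medians of 231 FPKM before and 210 after and did not pass, at -0.03 ± 0.18. Rtp4, a chaperone with antiviral action, ranged from 14.8 to 78.1 after transplantation and did not pass.

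Of the nucleic acid sensors, Dhx58 (LGP2) rose by 0.54 ± 0.20 (adjusted p = 0.0272) and Eif2ak2 (PKR), the kinase that halts translation on double-stranded RNA, by 0.55 ± 0.19 (adjusted p = 0.0184). Dhx58 was no longer called when replicate 8, 11 or 12 of the post-transplant group was left out (adjusted p = 0.0556, 0.0608 and 0.0568), nor with only the groups compared (0.0577). Without post-transplant 9 and u2 together neither was called (0.0792 for Dhx58 and 0.064 for Eif2ak2). Ddx58 (RIG-I), at 0.10 ± 0.24, and Ifih1 (MDA5), at 0.17 ± 0.15, did not pass. Both nevertheless had their 6 upper values in the same 6 libraries as Isg15, with Ddx58 from 5.66 to 37.2 FPKM and Ifih1 from 4.47 to 13.5. Zbp1, which senses Z-form nucleic acid, was too low to test, with medians of 0.197 FPKM before and 1.83 after.

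Parp9 and its partner Dtx3l, an ADP-ribosylating pair, are transcribed in opposite directions from starts 1129 bases apart on chromosome 11. Parp9 rose by 0.58 ± 0.21 (adjusted p = 0.0229), a call lost without post-transplant replicate 11 (0.0516) and without post-transplant 9 and u2 together (0.0823). Dtx3l, at 0.19 ± 0.20, and Parp14, at 0.24 ± 0.24, did not pass. Parp9 ran from 11.8 to 47.7 FPKM after transplantation and Dtx3l from 2.47 to 12.1, each with the 6 upper libraries above the other 5.

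Of the remaining effectors, Xaf1, an antagonist of the apoptosis inhibitor XIAP, rose by 1.10 ± 0.29 (adjusted p = 0.00224) from a median of 6.17 to 21.4 FPKM. Ifi44 (0.45 ± 0.26) and Ifi27 (0.00 ± 0.24) did not pass. Ifi27 was the most abundant gene of the list per length, with medians of 611 FPKM before and 567.9 after, and 390 in long-term survivors.

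The transcription factors of the response split into separate patterns. Irf7, which amplifies type I interferon production, was at 11.3, 14.1 and 32.5 FPKM before, 3.80, 84.1 and 195 after it and 14.1, 16.1 and 18.4 in long-term survivors. The 6 upper libraries were all at 84.1 or more and the other 5 at 24.9 or less. Irf7 rose by 1.55 ± 0.45 (adjusted p = 0.00524). Irf9 and Stat2, subunits of the factor that binds ISRE, did not pass, at 0.28 ± 0.18 and 0.01 ± 0.13; Irf9 still ranged from 8.35 to 35.7 FPKM with the same 6 libraries on top.

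Irf8, a factor of myeloid cells that interferon gamma induces, was at 3.57, 4.67 and 8.19 FPKM before, 9.25, 12.8 and 39 after it and 4.78, 6.63 and 8.09 in long-term survivors. It was the only 1 of the 33 genes in which every post-transplant library was above every pre-transplant library, as was the case for 2.98% of all tested genes. Its rise of 1.23 ± 0.17 had the lowest adjusted p of the list (1.25e-06). Replicate 11 was highest, replicate 2 next at 19.4, and replicate 9 lowest. Irf1, an early target of interferon gamma, was at 3.66, 10.6 and 17.7 FPKM before, 10.3, 19.9 and 94.0 after and 6.14, 8.17 and 11.9 in long-term survivors. It rose by 0.99 ± 0.27 (adjusted p = 0.00279), with replicates 11 and 3, at 94.0 and 33.7, on top.

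The guanylate-binding proteins, GTPases that attack vacuoles of intracellular microbes, all rose. Their genes lie together on chromosome 2 in the order Gbp5, Gbp4 and Gbp2. Gbp2 (ENSRNOG00000031743) was at 1.94, 3.54 and 7.84 FPKM before, 3.68, 16.2 and 202 after it and 3.76, 4.14 and 6.66 in long-term survivors. Replicate 11 stood far above the rest, the next being replicate 2 at 25.1, and replicates 5 and 10 fell within the pre-transplant range. Gbp2 rose by 1.84 ± 0.38 (adjusted p = 0.000215), Gbp5 by 1.84 ± 0.40 (adjusted p = 0.000369) and Gbp4 by 0.92 ± 0.25 (adjusted p = 0.00247). Gbp5 reached 48.8 FPKM and Gbp4 14.1 in replicate 11. Gbp4 was low, with medians of 0.354 FPKM before and 1.53 after. Its highest pre-transplant value was 0.798 FPKM, so it passed the filter only through post-transplant and long-term libraries. It could therefore hardly have been called lower, and its call is no separate support for a rise.

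**Figure D3:**
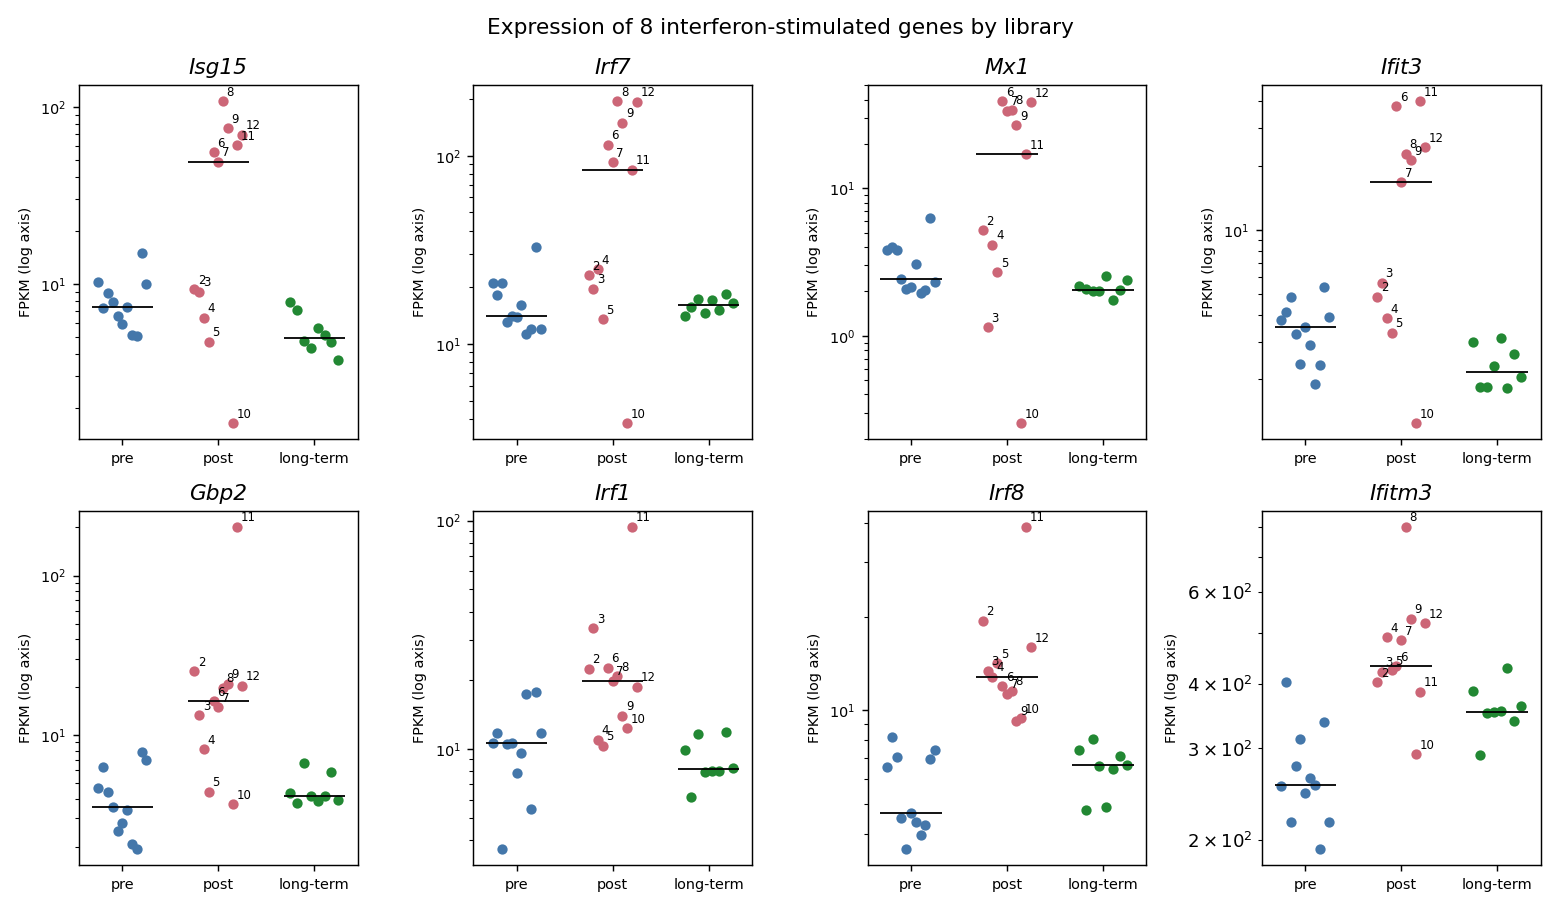
Points are libraries and bars are group medians, in FPKM on log axes, for 8 genes in the 3 groups; post-transplant points carry their replicate number. Isg15, Irf7, Mx1 and Ifit3 divide the post-transplant livers into 6 upper and 5 lower values, Gbp2 and Irf1 peak in replicate 11, and Irf8 and Ifitm3 are shifted as a group.

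Post-transplant replicate 11 thus held the highest value of 11 of the 33 genes and replicate 8 that of 14, while replicate 10 held the lowest value of 19. Over all tested genes, replicate 11 held the highest post-transplant value of 14%, the largest share of any library in the group, and replicate 8 that of 5.93%. The share of all tested genes lowest in replicate 10 was not counted, so its 19 has no such background. In replicate 11 the mean log2 level of Gbp2, Gbp4 and Gbp5 was 5.74, against 3.44 or less in the other post-transplant libraries. The mean of Mx1 and Mx2 there was 4.74, the lowest of the 6 upper libraries, which ran up to 6.23 in replicate 8. The livers with the highest Mx levels and the liver with the highest Gbp levels were therefore different ones.

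**Figure D4:**
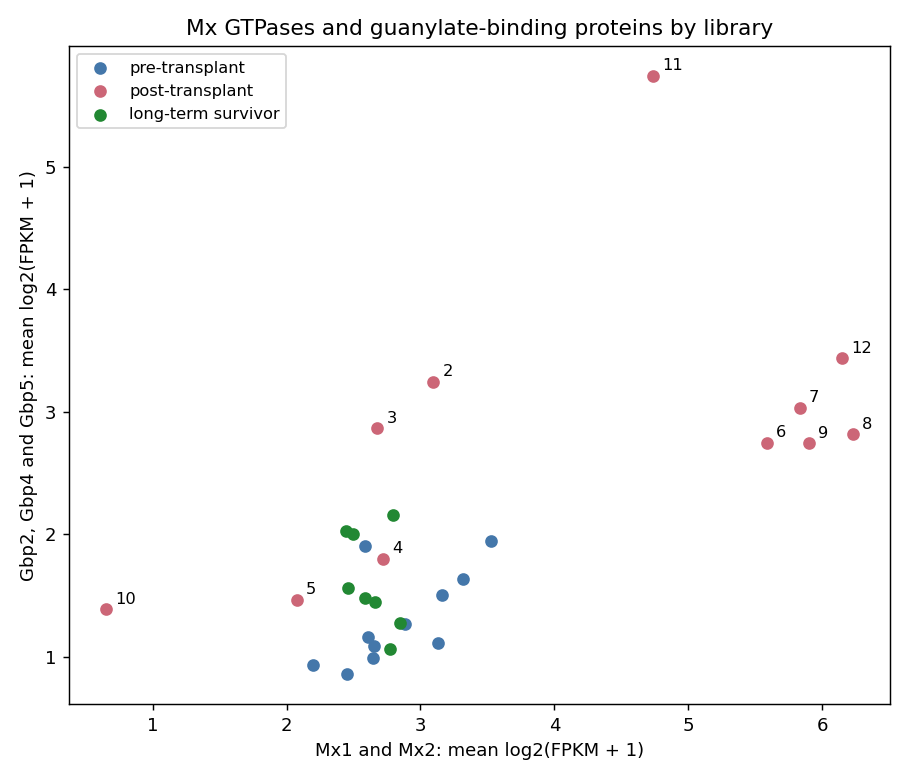
Each point is 1 library, with the mean log2(FPKM + 1) of Mx1 and Mx2 on the x axis and that of Gbp2, Gbp4 and Gbp5 on the y axis. Post-transplant replicates 6, 7, 8, 9 and 12 lie at the right with Gbp means of 2.74 to 3.44, replicate 11 lies apart at the top, and replicates 2 and 3 have raised Gbp means with Mx means in the pre-transplant range.

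The interferons themselves were almost unread. Of 14 ligand genes looked for, 11 were in the table (Ifna2, Ifna4, Ifna5, Ifna11, Ifna16l1, Ifnb1, Ifng, Ifnk, Ifne, Ifnl1 and Ifnl3), and none reached the level for testing. In post-transplant livers only Ifnb1 and Ifng had any reads. Ifnb1 had 2 reads, all in replicate 6. Ifng had 25 reads (1.94 FPKM) in replicate 11 and 1 read in replicate 9. A count of 0 allows up to 3 reads by counting error alone, so low levels of the others were not detectable at this depth.

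All 5 tested receptor genes rose after transplantation, beside 23.4% of all tested genes that were higher. The type I receptor chains Ifnar1 and Ifnar2 rose by 0.64 ± 0.10 and 0.61 ± 0.10 (adjusted p = 1.05e-05 and 1.3e-05 from limma). The gamma receptor chains Ifngr1 and Ifngr2 rose by 1.01 ± 0.12 and 0.97 ± 0.18 (adjusted p = 1.01e-07 and 4.27e-05), and Il10rb, shared by the lambda receptor, by 0.86 ± 0.11 (adjusted p = 3.51e-07). For none of the 5 were the 6 upper libraries all above the other 5. Ifngr1, for example, was highest in replicate 2, at 77.6 FPKM, and lowest in replicate 9, at 24.9. Ifnlr1, the specific chain of the lambda receptor, was too low to test, at 0.0735 FPKM before and 0.315 after (medians).

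Of 9 tested signalling genes, 4 were higher and 1 was lower. Among all tested genes 23.4% were higher and 26.6% lower, which is also the background for the sensing and regulator genes below. Jak2 rose by 1.09 ± 0.13, Stat3 by 1.32 ± 0.14 and Irf5 by 1.16 ± 0.17 (adjusted p = 1.44e-07, 1.53e-08 and 3.08e-06). Irf3, the factor that starts interferon production, fell by 0.46 ± 0.14 (adjusted p = 0.00834), a call that voom on recovered reads did not make. Upstream sensing genes were higher in 9 of 12, among them the RNA receptors Tlr7 (1.48 ± 0.18) and Tlr8 (1.33 ± 0.19), Zc3hav1 (0.57 ± 0.08) and the DNA sensor Cgas (1.02 ± 0.15), and 1 was lower. The lower 1 was Mavs, a call that voom on recovered reads did not make either (adjusted p = 0.143 with voom). Tlr7 and Cgas were low before transplantation, with medians of 0.664 and 0.292 FPKM, against 3.61 and 1.52 after. The post-transplant values of Tlr7, all at 1.47 FPKM or more, were enough to pass the filter. Genes that enter the test in this way favour the count of higher genes. Negative regulators were higher in 6 of 10 and lower in 1. Socs3, which blocks JAK signalling, rose by 2.23 ± 0.32 and was highest, at 105.3 FPKM, in replicate 10, the liver with the lowest interferon-stimulated genes. Ptpn2, Ptpn6 and Trex1 rose by 0.87 ± 0.13, 0.80 ± 0.13 and 0.63 ± 0.12.

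Of 20 tested interferon gamma targets, 15 were higher after transplantation and none was lower. Among all tested genes 23.4% were higher and 26.6% lower, which is also the background for the further list below. Psmb10, an immunoproteasome subunit, rose by 1.16 ± 0.16 and the Fc receptor gene Fcgr1a by 1.46 ± 0.21. The GTPase gene Ifi47 rose by 2.33 ± 0.33 and the adhesion gene Icam1 by 1.35 ± 0.20. Replicate 11 held the highest post-transplant value of 18 of the 20 targets, against 14% of all tested genes. It had 394 FPKM of Cxcl9 and 70.6 of Cxcl10, chemokines for T cells, where the next highest values were 47.7 and 28.9. Of 54 tested further interferon-stimulated genes, 33 were higher and 3 lower, led by Ifitm1 (1.36 ± 0.14), Plscr1 (1.71 ± 0.20), Cnp (1.62 ± 0.19) and Shisa5 (0.81 ± 0.10).

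Cell type markers moved with the groups as well. In bulk liver, fewer cells of a type and less RNA per cell cannot be told apart. Summed macrophage markers (8 genes in the table) ran from 288 to 2470 FPKM after transplantation and from 88.1 to 208 before it, without overlap, and 7 of 7 tested were higher. Summed neutrophil markers (10 genes) ran from 26.3 to 670 against 2.26 to 8.89. T and NK cell markers (12 genes) ran from 32.6 to 112 against 21.2 to 41.9, with Gzmb and Klrb1 at a median of 0. Plasmacytoid dendritic cell markers (7 genes) ran from 2.11 to 9.39 against 1.08 to 2.94, with Lair1 at a median of 0. Kupffer cell markers (9 genes) had medians of 1117 after and 368 before transplantation, and 8 of 9 tested were higher. Stellate cell and fibroblast markers (7 genes) ran from 29.8 to 253 against 11.6 to 21, without overlap, and 6 of 7 tested were higher. Hepatocyte markers (8 genes) had medians of 41789 after and 87908 before, and 3 of 8 tested were lower. Among all tested genes 23.4% were higher and 26.6% were lower, so the hepatocyte count is not far from the share at large. Taken singly, 2.98% of all tested genes had every post-transplant library above every pre-transplant library. The part of these cell types in the differences above was not tested.

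Within the post-transplant group these sums did not follow the order of the interferon-stimulated genes. Replicate 9, among the 6 upper libraries, had the lowest sums of neutrophil, T and NK cell and plasmacytoid dendritic cell markers, while replicate 2, among the lower 5, had the highest T and NK cell sum. Replicate 11 had the highest macrophage sum, 2470, and the lowest hepatocyte sum, 24533. It also had the highest Cd8a of the group, 27.9 FPKM against 8.91 or less, and the lowest of the Kupffer cell gene Clec4f, 10.1 FPKM.

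Comparing long-term survivors with pre-transplant livers asks what of this was present in livers sampled long after grafting. Of the 33 genes, 1 was higher, 2 were lower and 30 were not called. Among all tested genes 3.85% were higher and 30.8% lower. With only the groups compared in the fit, 3 of the 33 were higher and 10 lower, beside 5.48% and 34.9% of all tested genes. The median of all genes was -0.17 in this comparison, and with median-of-ratios scaling the split became 1023 higher and 1065 lower genes, in place of 459 and 3675. The median of the 33 was -0.12. Ifitm3 rose by 0.43 ± 0.14 (adjusted p = 0.0191 from limma). Trim25 fell by 0.85 ± 0.16 (adjusted p = 0.000188), from a median of 27.8 FPKM to 14.8, with ranges of 14.8 to 40.1 and 10.1 to 19.5. Bst2 fell by 0.73 ± 0.20 (adjusted p = 0.0051), a call lost with median-of-ratios scaling (0.0689) and with quantile normalization (0.135). The long-term medians of Isg15, Mx1 and Ifit3 were below the pre-transplant medians and that of Irf7 was above, and none of the 4 passed. Gbp5 ranged from 0.683 to 7.47 FPKM, highest in long-term replicate 6, and did not pass.

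The last comparison sets long-term survivors against post-transplant livers and shares all its libraries with the other 2. In it, 23 of the 33 genes were lower in long-term survivors and none was higher, beside 36.9% and 10.5% of all tested genes. At an unadjusted p under 0.05 the count of higher genes was also 0, as it was with voom. The median of the 33 was -0.83, against -0.16 for all genes, and with median-of-ratios scaling 17 of the 33 were lower. The count was 16 with only the groups compared, 18 with the close long-term pairs averaged and 12 with both that averaging and median-of-ratios scaling. The shares of all tested genes that were lower in these fits were 35%, 32.9% and 19.5%, and 21.6% with median-of-ratios scaling alone. Median-of-ratios scaling also turned the split over all genes from 1255 higher and 4401 lower to 2469 and 2575. Isg15 fell by 1.90 ± 0.52 (adjusted p = 0.00362), Ifit3 by 1.86 ± 0.40 (adjusted p = 0.000447), Mx1 by 1.83 ± 0.51 (adjusted p = 0.00441) and Rsad2 by 1.66 ± 0.34 (adjusted p = 0.000222). Irf8 fell by 1.02 ± 0.19 (adjusted p = 7.13e-05), and its highest long-term value, 8.09 FPKM, was below its lowest post-transplant value, 9.25. The share of all tested genes without overlap between these groups was not counted, so this separation has no background. Trim25 fell by 0.95 ± 0.16 (adjusted p = 2.28e-05), with medians of 31.5 FPKM after transplantation and 14.8 in long-term survivors.

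**Figure D5:**
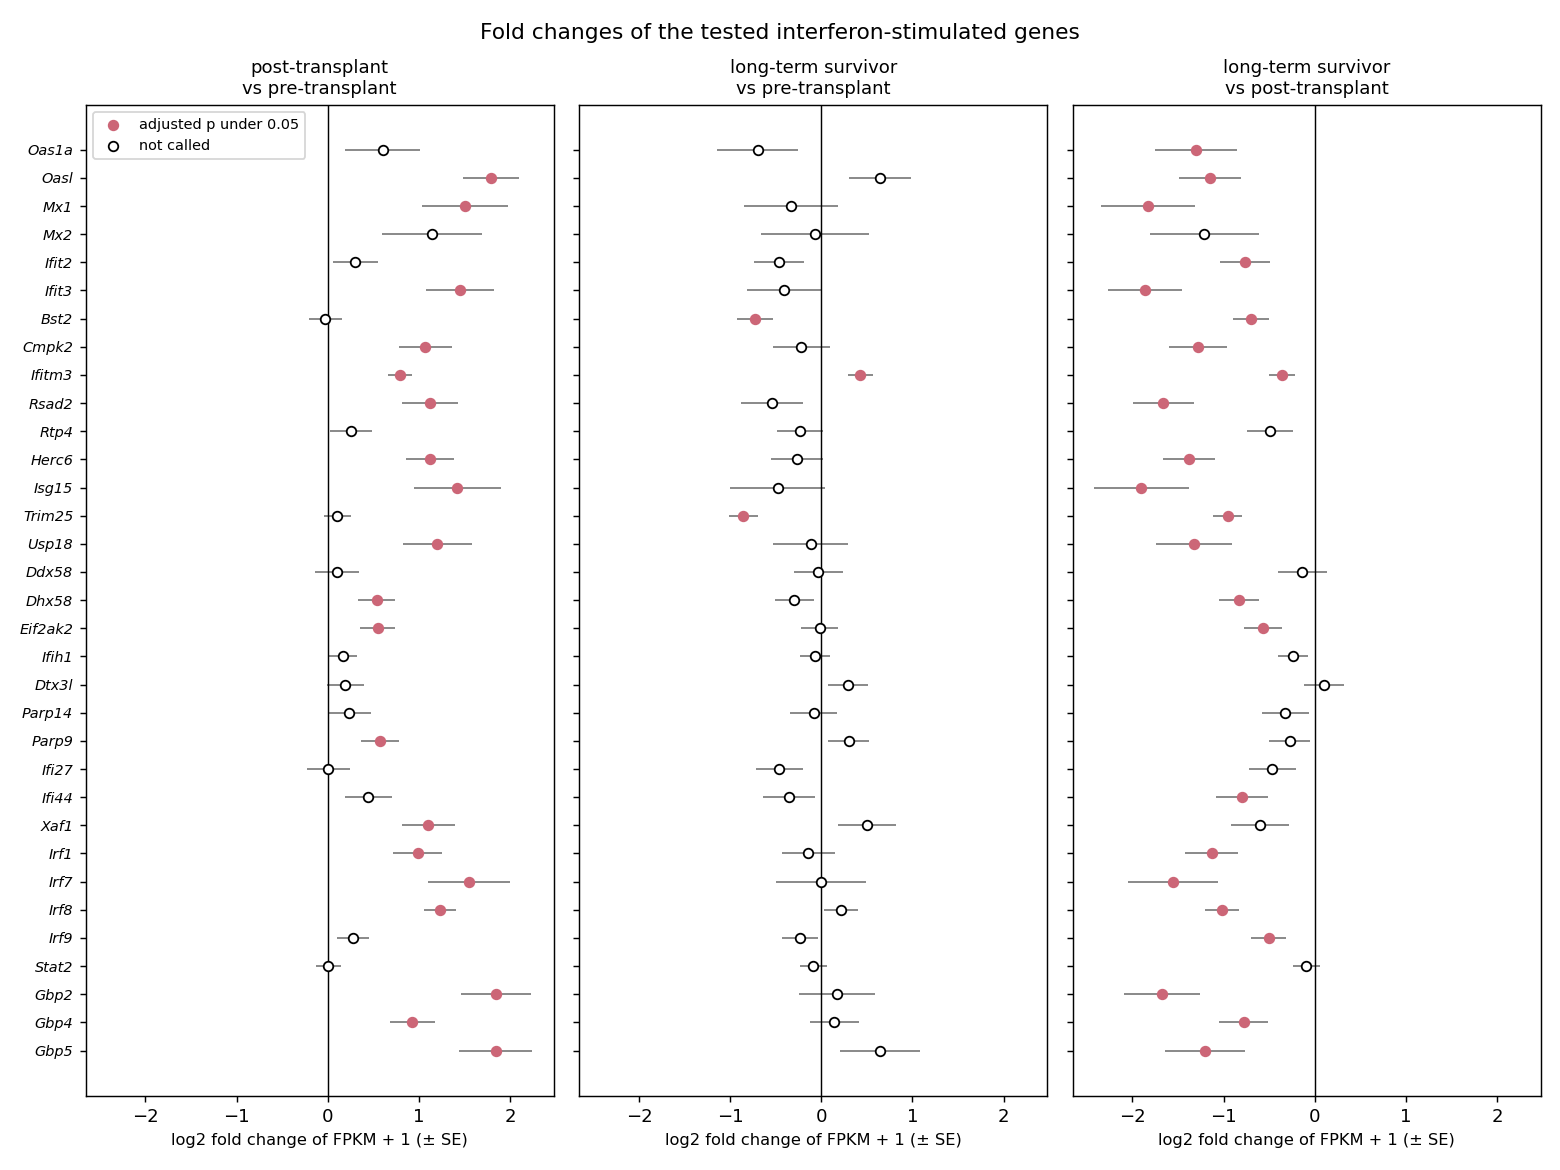
Points are log2 fold changes of FPKM + 1 with their standard errors for the 33 tested genes in the 3 comparisons, filled where the adjusted p was under 0.05. There are 19 filled points to the right in the first panel, 3 in the second and 23 to the left in the third.

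The spread among libraries also differed by group for several genes. In the long-term survivors Isg15 varied between 3.71 and 7.93 FPKM and Irf7 between 14.1 and 18.4, while the post-transplant values of Irf7 spanned a ratio of 51.4. Gbp5 was not narrow in long-term survivors, at 0.683 to 7.47 FPKM. The close pairs of long-term libraries, replicates 3 and 7 and replicates 4 and 8, may also lessen the spread there. The ratio of highest to lowest post-transplant value was 165 for Mx2, 153 for Mx1, 66.0 for Isg15 and 57.9 for Oas1a, and it was 2.40 for Trim25 and 2.43 for Stat2. Trim25 and Stat2, which did not pass after transplantation, thus had standard errors of 0.15 and 0.13. Mx2 and Oas1a, which did not pass either, stood in or under the pre-transplant range in 5 livers and mostly above it in 6, and had standard errors of 0.55 and 0.41.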

How the data were processed

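Liver RNA was sequenced in 32 samples, and the authors deposited 1 table of FPKM values per gene and library. The header names no unit, so FPKM was worked out from the deposited values. Values times gene length were whole multiples of 1 step in every library (100% within 0.02 reads, up to 5000 reads), which gave back read counts and depth. The submitters' processing notes name HISAT2 2.0.5, and as builds mm10 and Rnor_6.0, with no roles stated. Only Rnor_6.0 is a rat build. For the counting program, the strand setting and the annotation, the entry is: not given in the sources used here.

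Columns were tied to samples by header. The 2 columns that share a post-transplant header were not used, and the 2 that share a pre-transplant header are replicates u1 and u2. Other replicates are numbered in accession order. The 1218 genes outside Ensembl were left out. limma 3.58.1 in R 4.3.3 (empirical Bayes, trend and robust) was fitted to log2(FPKM + 1) of all 3 groups, two-sided, over the 11924 genes that 8 or more libraries held at 1 FPKM or above, with Benjamini-Hochberg adjustment and a threshold of 0.05; it was tested on simulated data. Alternatives were no filter on low values, a smaller pseudocount (0.1), scaling by median-of-ratios or quantiles, a fit without the third group, array weights, a fit with neither trend nor robust step, voom on recovered reads, a fold threshold of 2, leaving out the shared-header columns or each library, and averaging close long-term pairs. Leaving out post-transplant 9 with u2, and averaging pairs with median-of-ratios scaling, were chosen after seeing the data.

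The genes and lists were chosen with earlier results of these data known. Every listed gene is accounted for; up to 4 genes per further list with the smallest adjusted p, all ligands and receptors, and the 8 genes most like the list's mean are named. Cxcl9, Cxcl10, Cd8a and Clec4f were named after their values were seen. Python 3.11.15 with pandas 2.3.3, scipy 1.17.1 and matplotlib 3.10.9 was used for counts and figures.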

Additional observations from a re-analysis of the deposited data

Results flagged for a closer look

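Bst2 in long-term survivor replicate 1 was at 224 FPKM, while the nearest other long-term library was at 157 and the lowest at 115. Its distance from the nearest library was 0.61 of the whole range of the 8 libraries, above the limit of 0.526. Of the 33 genes checked in this group 1 stood out in this way, and chance would flag about 1 in 20.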

How the results depend on the processing

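No paired analysis was possible because the titles carry no shared replicate numbers. After against before transplantation, 19 genes were higher and 0 lower. The higher count ran from 13 with the fold threshold to 23 with no filter (then of 37 genes) or array weights. Of all genes fitted, 6.69%, 18.7% and 25.3% were higher in these settings. When each library was left out the higher count ran from 17 to 21, beside 22.1% and 22.6% of all genes. The lower count was 0 throughout. In long-term survivors against pre-transplant livers, 1 gene was higher in the main test, 3 with only the groups compared, 4 with array weights and 0 with the fold threshold. The count of lower genes there was 2 in the main test, 10 with only the groups compared, 1 with median-of-ratios scaling, quantile normalization or averaged pairs with that scaling, and 0 with the fold threshold. In the order given, the shares of all tested genes were 3.85%, 5.48%, 7.97% and 1.04% higher. They were 30.8%, 34.9%, 8.93%, 8.95%, 5.27% and 1.33% lower. Leaving out each library kept the higher count at 1 and the lower count at 2. Against post-transplant livers 23 were lower in the main test, 12 with averaged pairs and median-of-ratios scaling, 14 with the fold threshold, and 20 to 26 without each library. The shares of all tested genes beside these counts were 36.9%, 19.5%, 6.55%, 35.9% and 35.8%. Per library, genes above the pre-transplant range went from 6 to 10 in post-transplant replicate 2 with no filter and to 14 without the shared-header columns, from 3 to 7 in replicate 4 without those columns, from 2 to 4 in replicate 5 with no filter, and from 1 to 2 in replicate 10 under either. With no filter, 16.9%, 9.98% and 13.2% of all genes were above that range in replicates 2, 5 and 10. Without the shared-header columns the shares were 26.7%, 22.1% and 27.5% in replicates 2, 4 and 10. Of the further genes, Pias2 changed sign with voom, to 0.000439. The cause of these shifts was not tested. With 11, 11 and 8 libraries, differences inside the standard errors given were not detectable, and larger ones could also go uncalled. Mx2 after against before transplantation, at 1.14 ± 0.55, did not pass (adjusted p = 0.084 from limma).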

Other observations

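Outside all the lists, the genes whose levels across the 11 post-transplant libraries were ordered most like the mean of the 33 were RT1-S3, MGC108823, LOC100910979, Trafd1, Apol3, Rnf114, Klrk1 and RT1-N3. Their Spearman correlations with that mean ran from 0.927 to 0.955, given without a p since the genes were chosen for them and the libraries fall into an upper and a lower set. RT1-S3 and RT1-N3 belong to the rat MHC class I genes, and Klrk1 encodes the NKG2D receptor of NK cells and T cells. RT1-S3 was at 21.9 FPKM in replicate 10 and 391 in replicate 8, around a pre-transplant median of 155. LOC100910979 ran from 0.226 FPKM in replicate 10 to 22.5 in replicate 11, and MGC108823 from 0.439 to 31.1 in the same libraries. Their group differences after against before transplantation were near 0, at -0.02 ± 0.39 and -0.03 ± 0.40. Trafd1, Apol3, Rnf114, Klrk1 and RT1-N3 were higher after transplantation, with log2 fold changes of 1.16, 1.51, 0.38, 0.96 and 1.47 (adjusted p from limma between 2.48e-06 and 0.0193).

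Among the listed genes themselves, Parp9, Xaf1, Isg15 and Dhx58 were ordered most like the mean of the 33, and Irf8 least, with a Spearman correlation of 0.109 over the same 11 libraries. Each of the 33 is part of that mean, so some likeness to it is built in.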
